A study of Homo sapiens with 6 samples.

Results

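The fibroblast growth factor (FGF) set comprised 3 ligand genes, FGF1, FGF2 and FGF5, and 5 receptor genes, FGFR1, FGFR2, FGFR3, FGFR4 and FGFRL1, taken by symbol as the 8 matching genes of a table of 23002. Sequenced RNA came from U251, a long-established human line derived from a glioblastoma, whose cells carried a control short hairpin RNA (sh-NC, 3 samples) or a short hairpin RNA against TRAF2 (sh-TRAF2, 3 samples). TRAF2 is an adaptor protein that joins tumour necrosis factor (TNF) receptors to NF-kappaB and kinase signalling, and the comparison asked which transcripts differed once it was depleted. The vector listed for the TRAF2 hairpins is lentiviral and expresses the hairpin from a U6 promoter together with EGFP and a puromycin resistance gene; the vector of sh-NC is not given in the sources used here. The study's methods describe puromycin selection of stably transduced cells, and no other allele or agent is given for the 6 samples. Which of the TRAF2 hairpins was sequenced is not named in the sources used here. The study's methods say in general that experiments were repeated independently, but neither they nor the labels tie the 3 samples of a group to separate cultures, so the p-values measure the spread between these samples, which may be technical.

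FGFs are secreted or released growth factors that bind receptor tyrosine kinases on the cell surface, for most FGFs with heparan sulfate chains as a partner of the complex. The bound receptors phosphorylate the adaptor FRS2 and drive the RAS-ERK and PI3K-AKT relays, while SPRY and DUSP proteins, made in response to ERK, limit the signal. In gliomas FGF2 and FGFR1 are known for autocrine growth signalling, and FGFR3 for a gene fusion in some tumours.

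Expression was given as FPKM, reads per kilobase of gene length scaled to sequencing depth, so levels of different genes can be set side by side. The reads behind the values came to 35284048 to 36823562 per sample in sh-NC and to 33999558 to 34761466 in sh-TRAF2. The summed FPKM ran from 349408 to 350440 in sh-NC and from 352745 to 353563 in sh-TRAF2. In both measures the groups differed by a small amount but did not overlap. TRAF2 itself was at 15.1, 18.4 and 15.3 FPKM in sh-NC and at 3.26, 3.22 and 3.33 FPKM in sh-TRAF2, which gave a log2 fold change of -2.27 (adjusted p = 1.16e-06), so the labels and the target agreed in all 6 samples. Of the glioma and astroglial markers, VIM (1208 to 1606 FPKM), CD44, SOX2 and SOX9 were abundant, and VIM was higher in every sh-TRAF2 sample, whereas GFAP stayed between 0.334 and 1.62 FPKM and S100B at or below 0.0228 FPKM. PTPRC, PECAM1, EPCAM and CDH1, defining markers of immune, endothelial and epithelial cells, did not exceed 0.0186 FPKM in any sample. CD68, also of the microglial and immune list, was at 15.78 to 16.51 FPKM in sh-NC and at 14.85 to 17.55 FPKM in sh-TRAF2. It was not called, and ITGAM of that list did not exceed 0.1624 FPKM. Of 6 tested glioma and astroglial markers 3 were called higher and 0 lower, beside 23.7% and 20.9% of all tested genes. NES (nestin) was at 4.82 to 5.88 FPKM in sh-NC and at 11.4 to 11.8 FPKM in sh-TRAF2. CD44 was lower in every sh-TRAF2 sample (176.7 to 182.7 FPKM, against 186.9 to 191.6 FPKM in sh-NC) but was not called. The summed FPKM of the glioma and astroglial list, mostly VIM, ran from 1459 to 1531 in sh-NC and from 1810 to 1855 in sh-TRAF2. Summed over 5 genes each, the epithelial list ran from 17.2 to 19.4 FPKM in sh-NC and from 27.9 to 28.8 FPKM in sh-TRAF2, almost all of it KRT18, and the neuronal list from 30.7 to 33.9 and from 18.1 to 20.02 FPKM, mostly SYT1. Their part in the results was not tested.

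FGF2 was the most abundant of the 8 transcripts in both groups, followed by FGFRL1, FGFR1 and FGF5, and the FPKM ranges of these neighbours did not overlap. FGF1 came next, at 0.375 to 0.579 FPKM in sh-NC and 1.57 to 2.02 FPKM in sh-TRAF2. In sh-NC its range overlapped that of FGFR2, and in sh-TRAF2 it did not. FGFR2, FGFR3 and FGFR4 lay below 0.5 FPKM in every sample, and in both groups the ranges of FGFR3 and FGFR4 overlapped. Within each library FGFR4 was the higher of that pair in all 3 sh-NC samples and FGFR3 in all 3 sh-TRAF2 samples, on 5 to 20 reads per value.

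**Figure D1:**
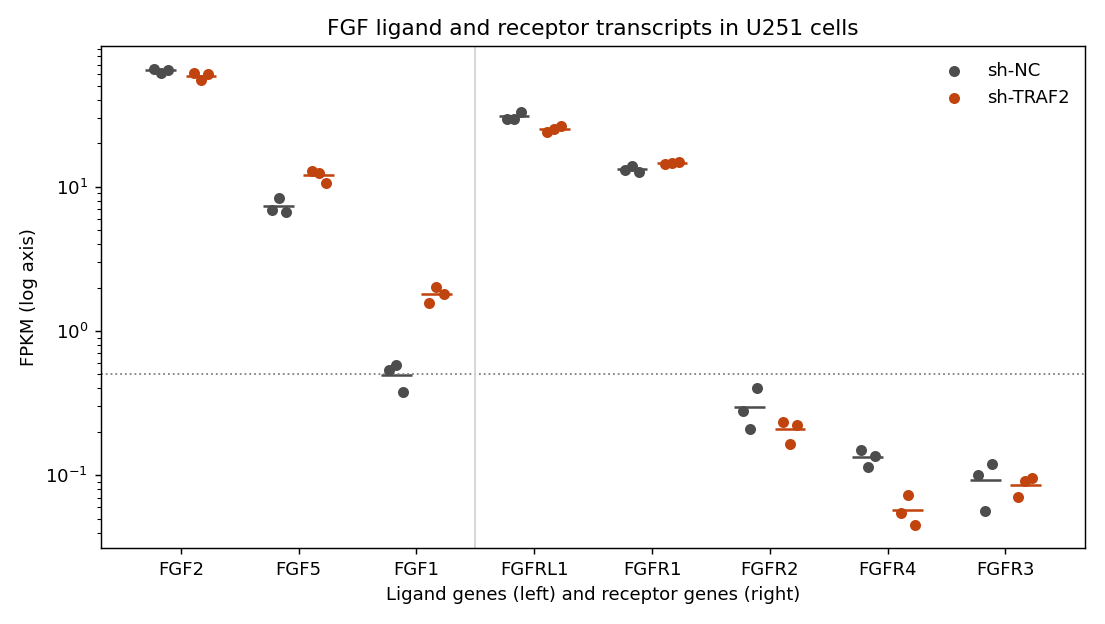
FPKM on a log axis of the 3 ligand and 5 receptor transcripts in the 3 sh-NC samples (grey) and the 3 sh-TRAF2 samples (orange), with a short bar at each group's mean and a dotted line at the 0.5 FPKM minimum for testing. FGF1 and FGF5 sit higher in every sh-TRAF2 sample, FGFRL1 and FGFR4 sit lower, and FGF2 sits far above the other transcripts in both groups.

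The change of each transcript was tested with limma on log2(FPKM + 0.1) over the 11870 genes whose mean reached 0.5 FPKM, and a gene was called at a Benjamini-Hochberg adjusted p under 0.05. Of the 8 members 5 reached that mean. FGF1 did so only through its sh-TRAF2 samples (means of 0.497 FPKM in sh-NC and 1.80 FPKM in sh-TRAF2). Called higher in sh-TRAF2 were 3 of the 5, FGF1, FGF5 and FGFR1, against 23.7% of all tested genes. The 1 called lower was FGFRL1, against 20.9%. With the study's added threshold of an absolute log2 fold change above 1, FGF1 alone was called higher (0.986% of all tested genes) and no member lower (0.733% of all tested genes). That count of 0 was limma's and stayed 0 at an unadjusted p under 0.05, while limma-voom, which also tested the low receptors, called 1, FGFR4. All 5 tested members had groups that did not overlap, which held for 55.5% of all tested genes. The median log2 fold change was 0.14 over the 5 and 0.02 over all tested genes. With 3 samples against 3, an exact two-sided permutation test of a single gene cannot give a p under 0.1, and it gave 0.1 for FGF1, FGF2, FGF5, FGFR1, FGFR4 and FGFRL1.

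**Figure D2:**
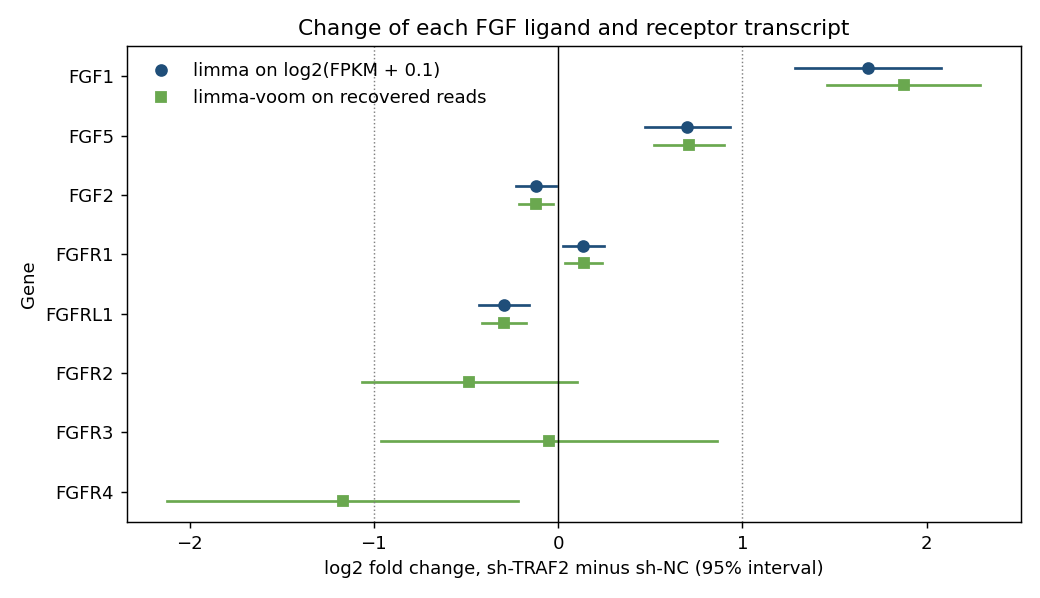
Log2 fold change of each FGF ligand and receptor transcript, sh-TRAF2 minus sh-NC, with its 95% confidence interval, from limma on log2(FPKM + 0.1) (circles, 5 genes) and from limma-voom on the recovered reads (squares, 8 genes), with dotted lines at -1 and 1. FGF1 lies to the right of the line at 1 in both fits, at 1.68 and 1.88, and the intervals of FGF2, FGFR1 and FGFRL1 stay within 0.5 of 0.

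Among the ligands, FGF1 rose most. FGF1, acidic FGF, binds all of the signalling FGF receptors and leaves the cell without a classical signal peptide. It was at 0.536, 0.579 and 0.375 FPKM in sh-NC and at 1.57, 2.02 and 1.82 FPKM in sh-TRAF2, so that the lowest sh-TRAF2 sample lay well above the highest sh-NC sample. The means were 0.497 ± 0.107 and 1.80 ± 0.224 FPKM (SD, n = 3), a ratio of 3.63. These values rested on 93, 101 and 68 reads in sh-NC and 267, 338 and 311 reads in sh-TRAF2. The sh-NC mean was under the 0.5 FPKM minimum for testing, which FGF1 reached only through its sh-TRAF2 samples. On the log2 scale FGF1 rose by 1.68 (standard error 0.174, 95% confidence interval 1.29 to 2.08, adjusted p = 0.000161). A pseudocount of 1 in place of 0.1 lowered this to 0.91, under the fold threshold though still called (adjusted p from 6.16e-06 to 0.0017 over the 15 alternatives), and limma-voom on the reads gave 1.88.

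FGF5, a secreted ligand with a signal peptide that is known for ending the growth phase of the hair follicle, rose as well. It was at 6.92, 8.41 and 6.71 FPKM in sh-NC and at 12.9, 12.4 and 10.7 FPKM in sh-TRAF2. Every sh-TRAF2 sample was above every sh-NC sample, with means of 12.0 ± 1.18 and 7.35 ± 0.93 FPKM (SD, n = 3). The log2 fold change was 0.70 (standard error 0.101, 95% confidence interval 0.47 to 0.93, adjusted p = 0.000824), a mean higher by 63.3%. The reads ran from 1403 to 1713 in sh-NC and from 2132 to 2563 in sh-TRAF2. FGF5 shares 136 exon bases on the same strand with CFAP299 in GENCODE release 29, and CFAP299 stayed between 0.0368 and 0.0633 FPKM in all 6 samples.

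The start regions of FGF1 and FGF5, the 2 members with the largest called changes, are given here for their letters, from the RefSeq promoter table (assembly GRCh38.p14), as the 250 bases before each annotated start. FGF1 lies on chromosome 5 (142592178 to 142698070, minus strand, GRCh38) and has 4 annotated starts, of which the pair farthest upstream lie 49 bases apart, so that 1 of those is shown. FGF5 lies on chromosome 4 (80266599 to 80336680, plus strand, GRCh38) and has 2. Each sequence runs 5′ to 3′ on the strand of the gene and ends at the base before the start, and capitals mark a motif match.
FGF1, most downstream start, chr5:142644240-142644489, minus strand: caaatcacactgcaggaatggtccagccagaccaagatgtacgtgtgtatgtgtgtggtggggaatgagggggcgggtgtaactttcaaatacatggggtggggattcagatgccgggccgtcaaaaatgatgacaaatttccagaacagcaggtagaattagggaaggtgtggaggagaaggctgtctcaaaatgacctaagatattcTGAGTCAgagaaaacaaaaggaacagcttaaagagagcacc
FGF1, middle start, chr5:142686091-142686340, minus strand: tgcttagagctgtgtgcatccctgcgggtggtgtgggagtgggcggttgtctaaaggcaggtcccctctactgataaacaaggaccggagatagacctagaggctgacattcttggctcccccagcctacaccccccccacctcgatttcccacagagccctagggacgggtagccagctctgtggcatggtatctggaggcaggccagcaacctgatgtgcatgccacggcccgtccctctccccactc
FGF1, upstream start, chr5:142698022-142698271, minus strand: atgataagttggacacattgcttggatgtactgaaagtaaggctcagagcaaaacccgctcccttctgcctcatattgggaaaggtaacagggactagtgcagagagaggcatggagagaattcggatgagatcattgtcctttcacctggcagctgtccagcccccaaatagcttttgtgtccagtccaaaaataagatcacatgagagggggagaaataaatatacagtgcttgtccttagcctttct
FGF5, upstream start, chr4:80266338-80266587, plus strand: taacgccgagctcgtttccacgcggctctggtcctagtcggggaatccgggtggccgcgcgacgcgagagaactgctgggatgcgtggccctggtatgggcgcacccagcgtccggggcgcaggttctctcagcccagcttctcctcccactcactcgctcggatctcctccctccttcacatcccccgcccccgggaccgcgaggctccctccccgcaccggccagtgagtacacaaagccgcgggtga
FGF5, downstream start, chr4:80268018-80268267, plus strand: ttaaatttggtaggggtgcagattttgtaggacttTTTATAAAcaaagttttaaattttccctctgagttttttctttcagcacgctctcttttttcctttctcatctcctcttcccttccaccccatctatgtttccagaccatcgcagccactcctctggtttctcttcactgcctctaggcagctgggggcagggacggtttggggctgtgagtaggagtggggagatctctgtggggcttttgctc

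In the most downstream FGF1 window the capitals mark the AP-1 motif TGAGTCA, which begins 41 bases before the start. In the downstream FGF5 window they mark TTTATAAA, in which TATAAA is read on both strands in overlapping positions. The other FGF1 windows and the upstream FGF5 window held none of the motifs searched. These were TATAAA, AP-1 (TGACTCA or TGAGTCA), the cyclic AMP response element (TGACGTCA), the NF-kappaB consensus and the CArG box, each on both strands. Over the 35116 windows of the table, TATAAA was found in 10.7%, AP-1 in 4.2%, the cyclic AMP response element in 1.65%, the NF-kappaB consensus in 5.21% and the CArG box in 1.16%. The GC content was 68.8% in the upstream and 47.2% in the downstream FGF5 window and 45.6% to 60.8% in the FGF1 windows shown, beside a median of 58% over all windows. Of the 8 members 7 had a window in the table, and among the others only FGFR4 held a motif, the NF-kappaB consensus in 1 of its 2 windows. One FPKM value per gene does not tell which start was used, and a match is a description of letters.

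FGF2, basic FGF, also lacks a signal peptide and is stored on heparan sulfate around the cell. It was at 65.6, 61.6 and 64.5 FPKM in sh-NC and at 61.2, 55.3 and 60.2 FPKM in sh-TRAF2. The groups did not overlap, but the gap between the lowest sh-NC and the highest sh-TRAF2 sample was small beside the spread within either group. The log2 fold change was -0.12 (standard error 0.048, 95% confidence interval -0.23 to -0.01), which did not pass the test (adjusted p = 0.0749), on 12855 to 16229 reads per sample. It passed in 3 of 15 alternatives, among them quantile normalization (adjusted p = 0.0253) and limma-voom on the reads (adjusted p = 0.0424), and the adjusted p ranged from 0.0253 to 0.223 over all of them.

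FGF2 (chromosome 4, 122826708 to 122898236, plus strand, GRCh38) shares 804 exon bases with NUDT6, which is transcribed from the opposite strand. Whether counting used strand is not given in the sources used here, and without strand the reads of these bases could belong to either gene. NUDT6 was at 4.99, 3.33 and 2.93 FPKM in sh-NC and at 4.08, 4.03 and 4.17 FPKM in sh-TRAF2. The groups overlapped, with a log2 fold change of 0.16 (adjusted p = 0.464), but without sh-NC replicate 1 it was 0.38 and called (adjusted p = 0.0117).

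The sum of the 3 ligand transcripts stayed between 70.6 and 73.1 FPKM in sh-NC and between 69.7 and 75.7 FPKM in sh-TRAF2, so the groups overlapped, while its makeup differed. FGF2 made up 89.1% ± 1.56 of it in sh-NC and 81.0% ± 1.73 in sh-TRAF2 (SD, n = 3). The share of FGF5 was 10.3% ± 1.45 and 16.5% ± 1.61, and that of FGF1 was 0.693% ± 0.152 and 2.49% ± 0.411. For each of the 3 ligands the samples of one group did not overlap those of the other. These shares are descriptions of transcript levels, with no test.

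**Figure D3:**
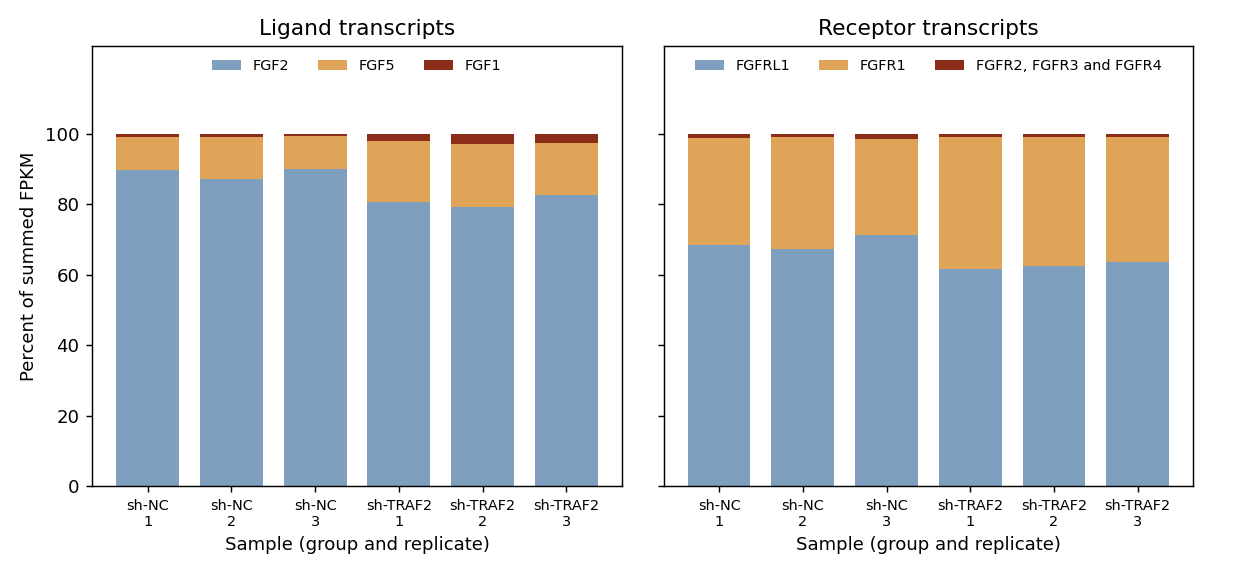
Share of each ligand transcript in the summed FPKM of FGF1, FGF2 and FGF5 (left) and of each receptor transcript in the summed FPKM of the 5 receptor genes (right), 1 bar per sample. In the sh-TRAF2 samples FGF5 and FGF1 take a larger part of the ligand sum and FGFR1 a larger part of the receptor sum, from a mean of 29.8% to 36.5%.

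Among the receptors, FGFRL1 fell. FGFRL1 binds FGFs and heparin but lacks the tyrosine kinase domain of the other receptors. It was at 29.6, 29.5 and 33.1 FPKM in sh-NC and at 23.8, 25.1 and 26.3 FPKM in sh-TRAF2, and every sh-TRAF2 sample was below every sh-NC sample. The means were 30.7 ± 2.05 and 25.1 ± 1.27 FPKM (SD, n = 3), on 4086 to 6071 reads per sample. FGFRL1 fell by 0.29 on the log2 scale (standard error 0.059, 95% confidence interval -0.43 to -0.16, adjusted p = 0.00472), and it was called under all 15 alternatives, with an adjusted p of 0.000857 to 0.0177. The gene lies on chromosome 4 (1009936 to 1026897, plus strand, GRCh38).

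FGFR1, the most abundant receptor with a kinase domain in these cells, was at 13.1, 13.9 and 12.7 FPKM in sh-NC and at 14.3, 14.6 and 14.7 FPKM in sh-TRAF2. Every sh-TRAF2 sample was above every sh-NC sample, by a narrow margin. Its rise of 0.14 on the log2 scale (standard error 0.048, 95% confidence interval 0.03 to 0.25) was just past the threshold (adjusted p = 0.0459). The call was lost without any 1 sample other than sh-NC replicate 2 (adjusted p from 0.0692 to 0.141), and it was kept in 5 of 15 alternatives in all. Those that ended it included the fits without the filter, under TPM rescaling or quantile normalization and without the trend (adjusted p from 0.0598 to 0.0641). FGFR1 (chromosome 8, 38400215 to 38468834, minus strand, GRCh38) shares 156 exon bases with AC087623.1 and 138 with LETM2, both on the opposite strand, and LETM2 was at 0.384 to 0.474 FPKM.

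FGFR2, FGFR3 and FGFR4, the other kinase receptors, were too low for the test. FGFR4 was at 0.151, 0.115 and 0.136 FPKM in sh-NC and at 0.0544, 0.0736 and 0.045 FPKM in sh-TRAF2, which came from 17, 13 and 16 reads and from 6, 8 and 5 reads. Every sh-TRAF2 sample was below every sh-NC sample, with a ratio of means of 0.431. In the alternatives that tested it, the log2 fold change of FGFR4 was -1.17 with limma-voom on the reads (95% confidence interval -2.12 to -0.22, adjusted p = 0.0489) and -0.57 without the filter (adjusted p = 0.0284), and fold changes that rest on so few reads are imprecise.

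FGFR2 was at 0.28, 0.21 and 0.405 FPKM in sh-NC and at 0.236, 0.165 and 0.224 FPKM in sh-TRAF2, and the groups overlapped. With limma-voom its log2 fold change was -0.48 (95% confidence interval -1.07 to 0.10, adjusted p = 0.176). FGFR3 was at 0.101, 0.0563 and 0.12 FPKM in sh-NC and at 0.0707, 0.0913 and 0.0957 FPKM in sh-TRAF2, on 9 to 20 reads per sample. Its groups overlapped too, and the limma-voom interval, -0.96 to 0.86, was wide enough to hold a change of either sign.

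Summed over the 5 receptors, the FPKM was 43.3, 43.7 and 46.5 in sh-NC and 38.5, 40.0 and 41.4 in sh-TRAF2. FGFRL1 took 69.0% ± 1.96 of this sum in sh-NC and 62.7% ± 0.878 in sh-TRAF2, and FGFR1 took 29.8% ± 2.22 and 36.5% ± 0.851 (SD, n = 3). The FPKM of FGFRL1 was 2.25, 2.13 and 2.6 times that of FGFR1 in sh-NC and 1.66, 1.72 and 1.79 times in sh-TRAF2, so the samples of the groups did not overlap. In bulk RNA a smaller number of cells expressing a gene and less of its RNA per cell cannot be told apart.

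Over the 6 samples, the tested genes whose log2(FPKM + 0.1) was most like that of FGF2 were PPP1R7 (Pearson r = 0.998), ZNF213 (r = 0.993) and ITGA2 (r = 0.992). Those most like FGFRL1 were GPNMB (r = 0.9997), HECTD2 (r = 0.996) and ZXDA (r = 0.996). GPNMB was at 37.5, 37.2 and 43.6 FPKM in sh-NC and at 28.3, 30.0 and 32.1 FPKM in sh-TRAF2, with the highest sample of each group the same as for FGFRL1. These 6 points share 2 groups and their libraries, and the likeness is a description.

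The rest of the FGF pathway was read from 10 lists of 117 genes, of which 110 were in the table and 81 were tested. Of the 81, 18 (22.2%) were called higher and 26 (32.1%) lower in sh-TRAF2, beside 23.7% and 20.9% of all tested genes, with a median log2 fold change of -0.04. Past the fold threshold, which 0.986% of all tested genes passed higher and 0.733% lower, were 2 genes, both higher, SDC2 and EGR1. Without sh-NC replicate 2 both stayed called but fell short of that threshold (log2 fold changes of 0.97 and 0.92), and with a pseudocount of 1 SDC2 did (0.84).

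**Figure D4:**
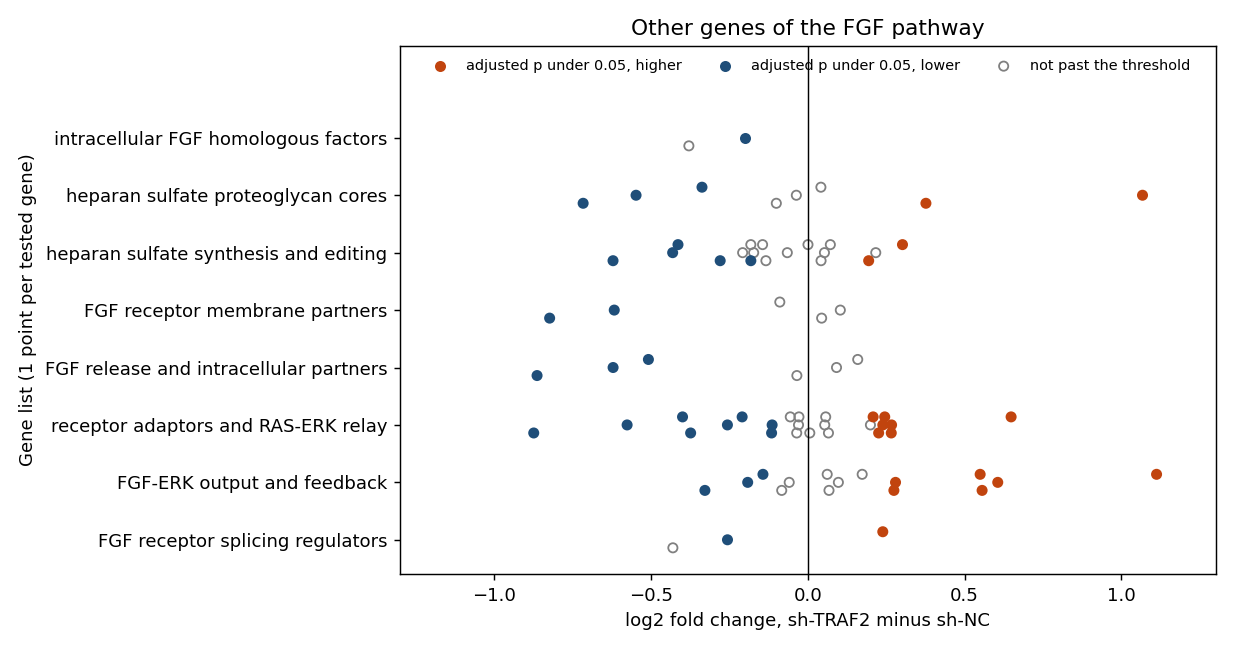
Log2 fold change, sh-TRAF2 minus sh-NC, of the 81 tested genes of the other FGF pathway lists, 1 point per gene and 1 row per list, filled where the adjusted p was under 0.05 (orange higher, blue lower) and open where it was not. SDC2 and EGR1 are the points above 1. All called genes of the membrane partner list (2 of 5 tested) and the release list (3 of 6 tested) lie to the left of 0. Of all tested genes 20.9% were called lower.

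None of the 10 other secreted FGF genes in the table reached the minimum, with no value above 0.56 FPKM, and neither did the 4 klotho co-receptor and FGF-binding protein genes, with none above 0.79 FPKM. Among the secreted genes FGF9 was higher in every sh-TRAF2 sample, on 1 to 9 reads per sample, and the groups of the others overlapped. Without the filter FGF9 was called higher (adjusted p = 0.0244), as were 2357 of 23002 genes. FGF12, an intracellular FGF homologous factor that acts on sodium channels instead of receptors, was at 5.48, 5.57 and 5.1 FPKM in sh-NC and at 4.66, 4.68 and 4.66 FPKM in sh-TRAF2, a log2 fold change of -0.20 (adjusted p = 0.0239). That call was lost without any 1 sample other than sh-NC replicate 3, with an adjusted p of 0.0549 to 0.079. FGF11, of the same family, had a log2 fold change of -0.38 that did not pass (adjusted p = 0.218).

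Heparan sulfate proteoglycans present FGFs to their receptors. Of the 8 tested core protein genes 2 were called higher and 3 lower, beside 23.7% and 20.9% of all tested genes. SDC2 (syndecan 2) was at 2.33, 1.9 and 2.4 FPKM in sh-NC and at 5.05, 4.19 and 4.94 FPKM in sh-TRAF2, higher by 1.07 on the log2 scale (standard error 0.11, adjusted p = 0.000163). SDC4 (syndecan 4), the most abundant of the list, was at 177, 167 and 169 FPKM in sh-NC and at 122, 114 and 115 FPKM in sh-TRAF2, and fell by 0.55 (adjusted p = 2.73e-05). GPC1 (glypican 1) fell from 14.96 to 16.5 FPKM in sh-NC to 8.92 to 10.7 FPKM in sh-TRAF2, by 0.72 on the log2 scale (adjusted p = 0.000165). For all 3, named for their small adjusted p, the groups did not overlap. That held for 5 of the 8 tested core protein genes and for 55.5% of all tested genes.

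Of the 18 tested genes that build or edit heparan sulfate, 2 were called higher, 5 lower and 11 did not pass. Among all tested genes the shares were 23.7% higher and 20.9% lower. NDST1, which replaces acetyl groups on the chain by sulfate, was at 17.7, 18.6 and 17.8 FPKM in sh-NC and at 11.1, 12.4 and 11.6 FPKM in sh-TRAF2, a log2 fold change of -0.62 (adjusted p = 7.32e-05). HS3ST3B1, a sulfotransferase of the chain, fell by 0.43 (adjusted p = 0.000204). EXTL2, a glycosyltransferase of the same pathway, rose by 0.30 (adjusted p = 0.000714).

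Tested partners at the membrane and in the release of FGFs were called lower or did not pass. Both lists are short, and of all tested genes 20.9% were called lower and 23.7% higher. Among 5 tested membrane partners 2 were called lower. FLRT2, a transmembrane protein of a family that binds FGF receptors, was at 3.09, 2.9 and 3.02 FPKM in sh-NC and at 1.62, 1.57 and 1.77 FPKM in sh-TRAF2, and fell by 0.82 (adjusted p = 0.000147). IL17RD (Sef), an inhibitor of FGF signalling, fell by 0.62 (adjusted p = 0.00918), and NCAM1, an adhesion protein that binds FGFR1, had a value of -0.09 (adjusted p = 0.351). Below the minimum for testing, FLRT3 was higher in every sh-TRAF2 sample, on 3 to 15 reads per sample, and the groups of FLRT1 overlapped. Of the 6 tested release and intracellular partners 3 were called lower. SYT1, a calcium sensor that takes part in the release of FGF1 and is also in the neuronal marker list, fell by 0.86 (adjusted p = 1.95e-05), from 23.9, 24.5 and 27.0 FPKM in sh-NC to 13.4, 13.5 and 14.4 FPKM in sh-TRAF2. FIBP, which binds FGF1 within the cell, fell by 0.62 (adjusted p = 3.58e-05).

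Below the receptors, 7 of the 24 tested adaptor and relay genes were called higher and 8 lower, beside 23.7% and 20.9% of all tested genes. PIK3CA, the catalytic subunit of PI3K, fell by 0.58 (adjusted p = 0.000191). AKT1, a kinase downstream of PI3K, was at 21.9, 21.4 and 22.1 FPKM in sh-NC and at 32.6, 34.6 and 35.5 FPKM in sh-TRAF2, and rose by 0.65 (adjusted p = 2.37e-05).

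Of the 15 genes known as ERK outputs or feedback inhibitors, all tested, 6 were called higher, 3 lower and 6 did not pass. Among all tested genes 23.7% were called higher and 20.9% lower. The median log2 fold change of the 15 was 0.10. Described here are the 3 with the smallest adjusted p, all higher, so none of the 3 called lower is among them. EGR1, an immediate early transcription factor, was at 9.73, 5.89 and 7.87 FPKM in sh-NC and at 17.4, 15.5 and 17.2 FPKM in sh-TRAF2, higher by 1.11 on the log2 scale (standard error 0.154, adjusted p = 0.000685). SPRY2 and SPRY1, Sprouty proteins that inhibit the RAS-ERK relay, rose by 0.55 (adjusted p = 0.00148) and 0.61 (adjusted p = 0.0025). SPRY2 was at 10.4, 11.2 and 8.82 FPKM in sh-NC and at 15.8, 14.8 and 14.0 FPKM in sh-TRAF2, without overlap. The groups did not overlap for 9 of the 15 genes and for 55.5% of all tested genes.

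Alternative splicing sets which ligands FGFR1, FGFR2 and FGFR3 bind, and 3 regulators of it were tested. PTBP1, which represses exons of FGF receptor genes, was at 102, 106 and 97.5 FPKM in sh-NC and at 120, 122 and 118 FPKM in sh-TRAF2, and rose by 0.24 (adjusted p = 0.00146). RBFOX2, a splicing factor that acts on FGFR2, fell by 0.26 (adjusted p = 0.000987). ESRP1, an epithelial splicing regulator, had a log2 fold change of -0.43 that did not pass (adjusted p = 0.0867), though it did without sh-NC replicate 2 (adjusted p = 0.0107). Isoforms of the receptors cannot be read from 1 value per gene.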

How the data were processed

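RNA of U251 cells (3 sh-NC and 3 sh-TRAF2 samples, grouped by their labels) was sequenced and processed by a company for the authors, who deposited FPKM per gene. The submitters' processing notes name HISAT2, HTSeq, R 3.2.0 and DESeq2; the build, annotation and use of strand are not given in the sources used here. Each gene's FPKM values were whole multiples of 1 step, so whole reads were recovered for all 23002 genes (tolerance 0.0001); for the 2643 with reads in 1 sample only the count was set to the lowest.

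Values were taken as log2(FPKM + 0.1), and genes with a mean under 0.5 FPKM left out. The pseudocount understates the change of low genes. The groups were compared with limma 3.58.1 in R 4.3.3 (eBayes with trend, two-sided), adjusted over 11870 genes by Benjamini-Hochberg. The count test on recovered reads was limma-voom, for 14130 genes averaging 10 reads or more. The read recovery and the fit were tested on simulated data. Python 3.11.15, numpy 2.4.6, pandas 2.3.3 and matplotlib 3.10.9 were used.

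The FGF genes and the pathway lists were chosen with earlier results of these data known. Named were TRAF2, the 8 members, NUDT6, the 3 genes of each list with the smallest adjusted p, those past both thresholds, and the 3 genes most like FGF2 and FGFRL1 each. Of these, 2 are not reported here. CFAP299 and LETM2 were added for shared exons, FGF9, FLRT1 and FLRT3 for values below the minimum, and marker genes as checks. FGF3, FGF4, FGF6, FGF16, FGF23, FGFBP2, ANOS1, AQP4, AIF1, CX3CR1 and CLDN5 were not analysed here. Gene positions and exon overlaps came from GENCODE release 29 (GRCh38). Alternatives changed 1 choice at a time, except limma-voom, which changed the input, filter and weighting together: pseudocounts of 1 and 0.01, an FPKM minimum of 1 or none, TPM rescaling or quantile normalization, a block for the replicate number, no trend in eBayes, limma-voom, and the omission of each sample.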

Additional observations from a re-analysis of the deposited data

How the results depend on the processing

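The 5 tested members were fitted under 15 alternatives and none changed direction, nor did a named gene of the pathway lists, a gene most like FGF2 or FGFRL1, TRAF2 or NUDT6 in the alternatives that tested it. FGF1, FGF5 and FGFRL1 passed the test in each. FGFR2, FGFR3 and FGFR4 were tested only without the filter and with limma-voom. The markers, CFAP299, LETM2, FLRT1 and FLRT3 were not followed through the alternatives, nor was FGF9 beyond the fit without the filter. Without any 1 sample the log2 fold change ran from 1.53 to 1.79 for FGF1, from 0.64 to 0.80 for FGF5 and from -0.33 to -0.24 for FGFRL1. The number of members called lower, 1 as reported, was 2 without the filter (FGFRL1 and FGFR4), 2 under quantile normalization (FGFRL1 and FGF2) and 3 with limma-voom (FGFRL1, FGF2 and FGFR4). Taken from recovered reads, which are not per length, FGFR1 made up 39.6% of the receptor sum in sh-NC and 47.0% in sh-TRAF2, and FGFRL1 59.1% and 52.0%, so the levels moved and the order of the groups did not. Among all genes 2818 were called higher and 2479 lower, and limma-voom called 3022 and 2737 of 14130. Called lower were 2065 of 23002 genes without the filter and 2725 of 11870 under quantile normalization.

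Same-numbered samples of the groups did not deviate together (correlations of -0.081, 0.072 and 0.073), so the numbers were not read as pairs. With the replicate number as a block, 2 members were called lower, FGFRL1 and FGF2 (adjusted p = 0.0286), and FGFR1 was no longer called (adjusted p = 0.0556). Of all 11870 genes 2539 were called lower with the block. The depth limits what can be said of FGFR3 and FGFR4, with 5 to 20 reads per sample.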
